A study of Mus musculus with 2 samples.

Results

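The high mobility group (HMG) genes encode small, abundant chromatin proteins, and 9 of them were followed in RNA of newborn mouse midbrain. The genes were Hmgb1, Hmgb2, Hmgb3, Hmgn1, Hmgn2, Hmgn3, Hmgn5, Hmga1 and Hmga2, taken by symbol from the 43346 mouse genes of the tables without regard to their levels. All 9 had a row. The RNA came from 1 midbrain each of pup 1 and pup 3 of the B6NCrl mouse strain on postnatal day 0, with 1 library per pup. The labels number the pups as biological replicates but give both the same donor record. Each library is labelled as made from 13 pg of total RNA, a size range above 200 and 1 cell-equivalent, with spike-in RNAs, and the labels name a Smart-seq protocol, a method that amplifies full-length cDNA. The assay is labelled single cell RNA-seq, but the input was tissue RNA. Both libraries form 1 group with no treatment given, sex was not collected, and no condition was compared.

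HMG proteins act on chromatin in 3 ways. HMGB proteins carry a pair of HMG boxes that bend DNA, followed by an acidic tail. HMGN proteins bind the nucleosome itself and loosen chromatin compacted by linker histone. HMGA proteins hold AT hooks, short basic stretches that lie in the minor groove of AT-rich DNA. In the developing mouse brain Hmgb2 and Hmga2 are known from neural progenitors, and Hmga2 is known as a target that the let-7 microRNAs repress.

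The stretches that define the HMGN and HMGA members are shown here as coding DNA of GENCODE M21 on GRCm38, to show where the genes match and differ in the bases that code for their chromatin contacts. The first set is the conserved nucleosome-binding core, with its codons in capitals. It lies at chr16:96127201-96127337 in Hmgn1, chr4:133966477-133966792 in Hmgn2, chr9:83112268-83114799 in Hmgn3 and chrX:109010605-109010883 in Hmgn5, on the minus strand in each, and in all 4 genes the printed bases cross an exon junction.
Hmgn1: aagCGCCGCTCCGCGAGGCTGTCGGCCaag
Hmgn2: cagAGAAGATCTGCGAGGTTGTCTGCTaaa
Hmgn3: acaAGACGGTCGGCCAGGTTGTCCGCGaaa
Hmgn5: aagAGAAGATCAGCCCGACTGTCTGCTatg

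The second set is the first AT hook of each HMGA gene, with the codons of its core in capitals. It lies at chr17:27559635-27559664 on the plus strand in Hmga1 and at chr10:120475959-120475988 on the minus strand in Hmga2.
Hmga1: aagcgaggcCGGGGCAGGCCAcgcaagcag
Hmga2: aagcgaggaCGCGGCCGACCCaggaagcag

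Over whole coding sequences, Hmgb1 matched Hmgb2 at 78.8% and Hmgb3 at 75.6% of aligned coding bases, Hmgn1 matched Hmgn2 at 69.4%, and Hmga1 matched Hmga2 at 68.3%. The longest run of identical bases between coding sequences of a family was 27, between Hmgb1 and Hmgb3.

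Together the 9 genes held 2114 TPM (a transcript level per length, scaled to the same total in each library) in pup 1 and 2949 TPM in pup 3, which is 0.211% and 0.295% of all TPM. Their mean was 2532 ± 590.2 TPM (SD, n = 2). HMGB genes held 864 and 1502 TPM, HMGN genes 1030 and 1312 TPM, and HMGA genes 220 and 135 TPM, in pup 1 and pup 3. HMGB and HMGN genes thus held most of the summed level in both pups, and HMGA genes were the smallest group. In tissue RNA, fewer cells of a type and less RNA per cell cannot be told apart. With detection set at 1 TPM, 8 of the 9 were detected in both pups, all but Hmga2. The same held for 31.8% of 21474 protein coding genes, or 63.5% of the 10772 detected in at least 1 pup.

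Among the HMGB genes, Hmgb1, the founding member and a signal of cell damage when released (ENSMUSG00000066551.8, GRCm38 chromosome 5, 149046702 to 149184489), read 460.1 TPM in pup 1 and 834 TPM in pup 3. Hmgb3, an X-linked member known from blood progenitors (chromosome X, 71555918 to 71560676), read 396 and 606 TPM. Hmgb2, which is tied to dividing cells (chromosome 8, 57511907 to 57515999), read 7.54 and 62.1 TPM. Hmgb1 and Hmgb3 were thus among the upper levels of the library in both pups, with 283 and 338 coding genes above them in pup 1 and 128 and 212 in pup 3. Hmgb2 was low in pup 1, where 7647 coding genes stood above it, and of middle level in pup 3, where 2661 did. Within a library, the log2 ratio of TPM + 1 of Hmgb1 over Hmgb2 was 5.75 in pup 1 and 3.73 in pup 3, and that of Hmgb1 over Hmgb3 was 0.21 and 0.46. In both pairs Hmgb1 was the higher gene in both pups, and the deposited TPM intervals of the paired genes did not overlap. These intervals enclose the deposited posterior mean TPM and not always the TPM itself. That of Hmgb3 in pup 1, 376 to 392, holds its posterior mean of 384 but not its TPM of 396. In counts Hmgb1 and Hmgb3 were nearly equal in pup 1, at 9987 and 9965.

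Among the HMGN genes, Hmgn2 (ENSMUSG00000003038.11, chromosome 4, 133964738 to 133968650) was the highest of all 9 in each pup, at 741 TPM in pup 1 and 934 TPM in pup 3. Only 142 and 102 coding genes were above it. Hmgn3, known for high levels in brain and endocrine cells (chromosome 9, 83109948 to 83146685), read 192 and 216 TPM, and Hmgn1 (chromosome 16, 96120618 to 96127729) 92.9 and 146 TPM. These 2 genes were well below Hmgn2 in both pups, and Hmgn3 was above Hmgn1 in both per length, a direction that reversed to a mean log2 ratio of 0.40 in CPM, which is not per length. The log2 ratio of Hmgn1 over Hmgn2 was -2.98 and -2.66, and that of Hmgn1 over Hmgn3 -1.04 and -0.56, each without overlap of the deposited intervals. Hmgn5, an X-linked member with a long acidic C-terminal region (chromosome X, 109004534 to 109013404), was the lowest, at 5.44 and 16.2 TPM.

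Of the HMGA genes, Hmga1 (ENSMUSG00000046711.11, chromosome 17, 27556497 to 27563674) read 218 TPM in pup 1 and 135 TPM in pup 3. It stood above Hmgn3 and Hmgn1 in pup 1 and below both in pup 3. Hmga2 (ENSMUSG00000056758.10, chromosome 10, 120361275 to 120476469) read 1.60 TPM from 94 counts in pup 1 and 0 TPM from 0 counts in pup 3. In pup 3 a count of 0 allows up to 0.0926 CPM (counts scaled by the library total), the equal of 3 counts. This floor covers counting error only, because amplified reads are not independent molecules. Hmga1 exceeded Hmga2 by log2 ratios of 6.40 and 7.08, whose size depends on the added 1, as Hmga2 was at or near 0.

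**Figure D1:**
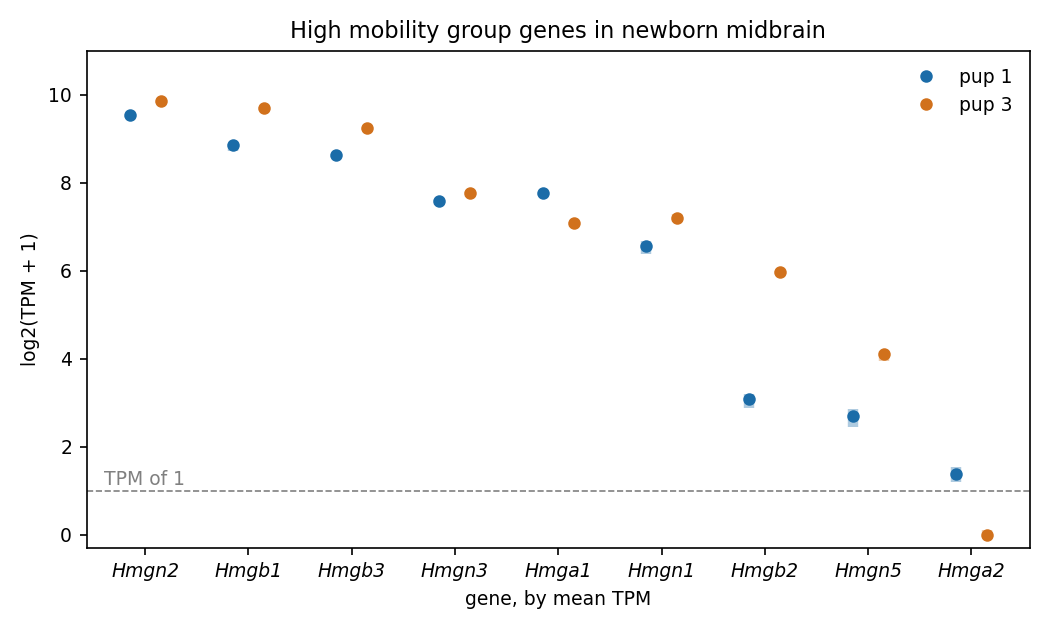
Level of each gene as log2(TPM + 1) on the vertical axis, with pup 1 in blue and pup 3 in orange and the deposited TPM interval as a pale bar. The interval encloses the posterior mean TPM and need not hold the point. Hmgn2, Hmgb1 and Hmgb3 lie highest in both pups, Hmgb2 differs most among genes seen in both, and Hmga2 is near a TPM of 1 in pup 1 and at 0 in pup 3.

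By mean TPM the order was Hmgn2 (837 ± 136), Hmgb1 (647 ± 264), Hmgb3 (501 ± 148), Hmgn3 (204 ± 17.4), Hmga1 (176 ± 59.2), Hmgn1 (120 ± 37.9), Hmgb2 (34.8 ± 38.5), Hmgn5 (10.8 ± 7.57) and Hmga2 (0.80 ± 1.13), as mean ± SD over n = 2 pups. The pups' values overlapped between neighbours in this order except at 3 places: every value of Hmgb3 was above those of Hmgn3, every value of Hmgn1 above those of Hmgb2, and every value of Hmgn5 above those of Hmga2. Within a library the order was steadier: Hmgn2, Hmgb1 and Hmgb3 were the top 3, in this order, in each pup, and Hmgb2, Hmgn5 and Hmga2 the lowest 3, in this order, while Hmgn3, Hmga1 and Hmgn1 changed places.

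Several of these genes have near-identical copies in the genome, and the tables divide reads among gene and copies. A copy here is a gene with a transcript that matches a member's longest transcript in the same direction over 200 bases or more, at 90% identity or more and over at least 50% of the copy, and whose own count carries a posterior SD above 0. Hmgb1 had 40 such copies in the tables, all pseudogenes, and 23 of them had 3 counts or more in a library. The copies took 3533 counts in pup 1 and 9159 in pup 3, or 26.1% and 28.5% of the counts of Hmgb1 and copies together. Most lay on Gm15387 (chromosome 15, 74093686 to 74094333), a processed pseudogene with 2795 and 7777 counts, and on Gm21596 (chromosome 2, 113919247 to 113920562), with 639 and 995.

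Gm15387 differs from the coding sequence of Hmgb1, stop codon included, at 1 of 648 bases. The difference is A21G, with Hmgb1's base first and position 1 at the first base of the start codon. The bases around it are shown because only reads over this position can tell the 2 coding sequences apart, with the differing base in capitals. They lie on GRCm38 at chr5:149050697-149050737 and chr15:74094293-74094333, both on the minus strand.
Hmgb1: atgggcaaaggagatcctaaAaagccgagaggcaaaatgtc
Gm15387: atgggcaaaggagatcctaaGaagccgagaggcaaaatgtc

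The deposited posterior SD of the count is a spread within the authors' quantification, not the possible error of the split among genes. It was 85.7 of 9987 counts in pup 1 and 108 of 23028 in pup 3 for Hmgb1, and 81.7 of 2795 and 111 of 7777 for Gm15387. These SDs were small beside the counts placed on the copy, which does not show that the split is right. With the copies' TPM added to that of Hmgb1, the sum was 818 TPM in pup 1 and 1531 TPM in pup 3. By mean TPM this sum was the first of the 9, above Hmgn2 (749 and 947 TPM with its own copy). Each copy's TPM is per its own length, and Gm15387 has 648 bases beside an effective length of 1332 and 1213 for Hmgb1. The sum thus overstates what Hmgb1 would read if the copies' reads were its own. In counts with copies, Hmgb1 had 13520 and 32187 and Hmgn2 13739 and 25112.5. Which of Hmgb1 and Hmgn2 was higher therefore depends on the pup and on whether and how copies are counted.

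Hmgn5 and Hmgb2 each shared reads with 1 processed pseudogene of 3 counts or more. Gm11914 (chromosome 4, 27867149 to 27867655), 99.4% identical to Hmgn5 over 507 bases, held 25.2 counts in pup 1 and 264 in pup 3, beside 163 and 675 for Hmgn5. Gm13237 (chromosome 4, 146564453 to 146565087), 98.7% identical to Hmgb2 over 635 bases, held 17.5 and 343 counts, beside 319 and 3665 for Hmgb2. The posterior SD was 3.74% and 2.05% of the count for Hmgn5 and 2.26% and 0.797% for Hmgb2, the highest shares among the members. The other members lost little to copies. Hmga1 shared reads with Hmga1b (chromosome 11, 120762794 to 120764419), a coding gene that matched it at 99.8% over 1538 bases and held 111 and 69.3 counts beside 5430 and 4324. Hmgn2 shared reads with the coding gene Gm10282, with 147 and 324 counts beside 13592 and 24789. Hmgb3 and Hmgn1 gave at most 2.51% of their joint counts to copies in either pup, and Hmgn3 and Hmga2 had no copy by this definition.

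**Figure D2:**
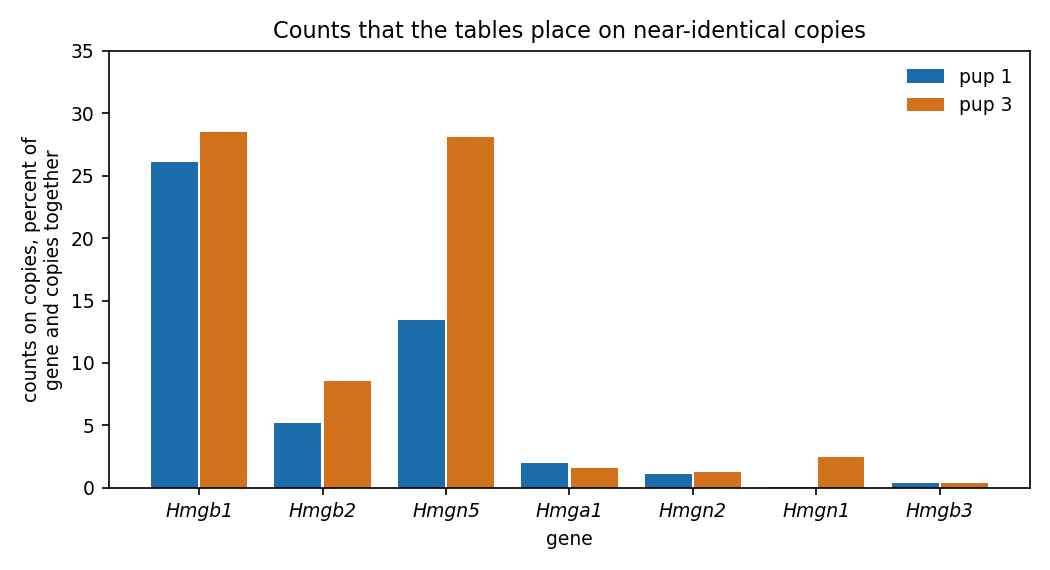
Share of counts placed on near-identical copies, in percent of the counts of gene and copies together, with pup 1 as blue and pup 3 as orange bars. Copies of Hmgb1 hold 26.1% and 28.5%, and the copy of Hmgn5 holds 13.4% and 28.1%.

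Other rows matched a member over 200 bases but were not counted as copies, and the 4 with most counts were Tmx3, Ppm1e, Cox16 and Gm20498. Cox16 and Gm20498 matched Hmga2, and Ppm1e matched Hmgb1, each on the opposite strand. Tmx3 matched Hmgb2 at 90.4% over 929 bases, but its posterior SD was 0 in both pups. Of genes whose exons overlap those of a member on the other strand, AI413582 shared 102 exon bases with Hmga1 and had 986 and 860 counts, and Uspl1 shared 42 with Hmgb1 and had 3444 and 3527 counts. The use of strand in counting is not given in the sources used here, so reads in these overlaps cannot be assigned.

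Transcript make-up was compared for the 6 members with several transcripts and at least 50 counts in each library. In 4 of them the transcript with the highest TPM was the same in both pups, and over 5311 such genes the share was 62.8%. Transcripts are named as in GENCODE M21. Hmgn2-203 held 90.9% of the Hmgn2 level in pup 1 and 99.97% in pup 3, and Hmgn1-201 held 90.6% and 69.7% of Hmgn1. Hmgb3-204 led with 46.7% and 60.2%, Hmgb3-202 held 27.4% and 39.5%, and Hmgb3-201 held 25.6% in pup 1 and 0% in pup 3. All 3 have a coding sequence of 600 bases. In pup 3 the count of Hmgb3-201 was 0.44 with a posterior SD of 276, so the split among these transcripts is uncertain. Hmgb1-206, an entry with a retained intron, led Hmgb1 with 38.2% and 42.9%, ahead of the coding Hmgb1-201 with 30.3% and 32.5%. In counts the order was the other way, with 1589 and 4518 counts for Hmgb1-206 and 6216 and 16911 for Hmgb1-201, since Hmgb1-206 is 654 bases long and Hmgb1-201 2838.

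The leading transcript changed between pups for Hmga1 and Hmgn3, and in both the change was between coding forms. For Hmga1, Hmga1-203, with a coding sequence of 318 bases, held 76.4% in pup 1 and 21.3% in pup 3, while Hmga1-201, with 288 bases, held 23.6% and 63.1%. Hmga1-206, with 321 bases, held 0% and 15.7%. Long and short forms, known as HMGA1a and HMGA1b, differ by 33 coding bases just after the first AT hook. These bases are given here because their presence decides the form, in capitals with 15 bases on either side, from Hmga1-206 at chr17:27559656-27560942 on the plus strand of GRCm38, across an exon junction.
Hmga1 insert: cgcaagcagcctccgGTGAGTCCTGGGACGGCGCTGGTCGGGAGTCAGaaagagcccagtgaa

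For Hmgn3, Hmgn3-203 (coding sequence of 285 bases) led in pup 1 with 41.9% and held 0.90% in pup 3. Hmgn3-201 (231 bases), the short form known as HMGN3b, held 14.0% and 60.1%, and Hmgn3-202 (297 bases), the long form, 27.5% and 5.15%. Of entries that do not code for protein, Hmgn3-204, with a retained intron, held 16.6% and 11.1%, and Hmgn3-206 0% and 18.9%. The short and long forms share their first 221 coding bases and part at the end. The effective length of Hmgn3, which follows its transcript mix, was 917 bases in pup 1 and 641 in pup 3, so that its level per length was lower in pup 1 while its scaled count was higher there. Coding lengths are those of M21. The Hmga1 transcripts differ in total length between the files and M21, so that the forms named for them rest on the identifiers.

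**Figure D3:**
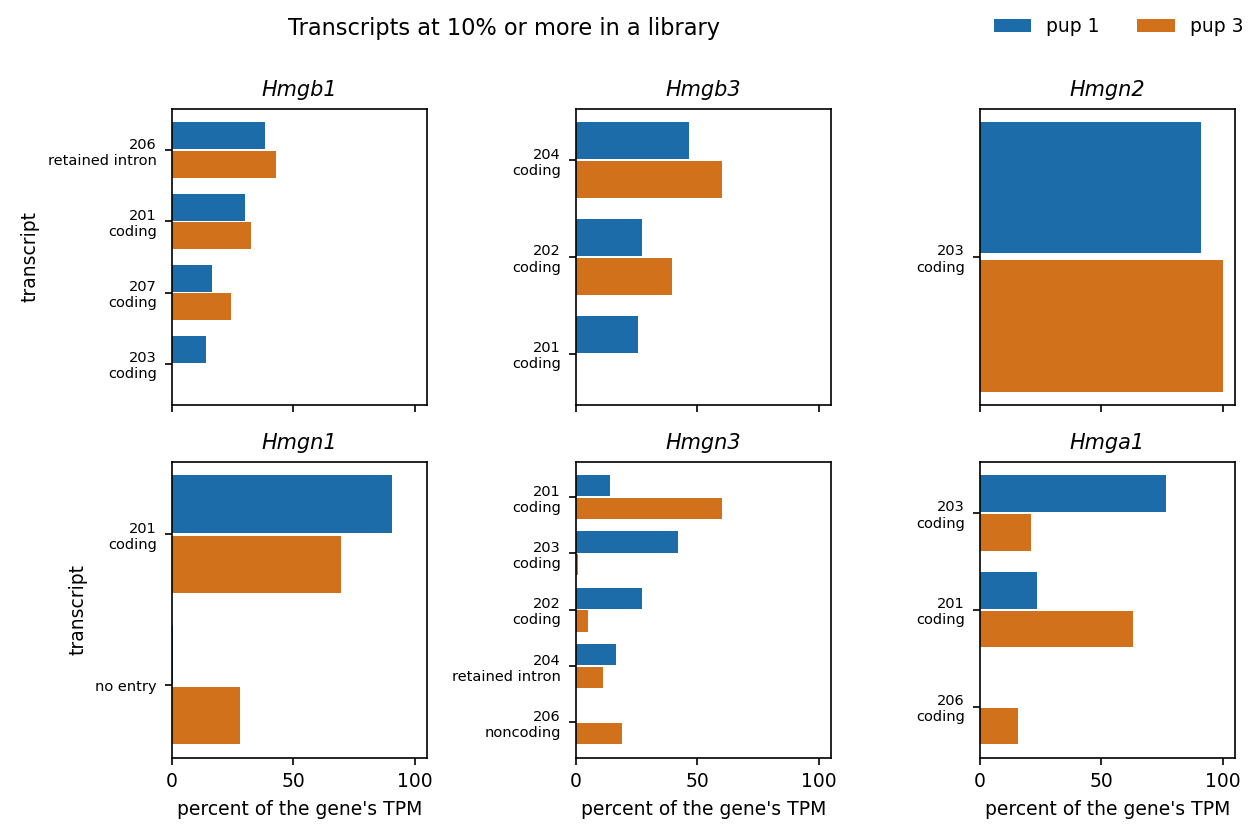
Percent of each gene's TPM on transcripts that reach 10% in a library, with pup 1 as the upper blue and pup 3 as the lower orange bar, and transcript numbers as in GENCODE M21. Hmgn2 is nearly all 1 transcript in both pups, whereas the leading forms of Hmga1 and Hmgn3 differ between pups.

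To compare the pups gene by gene, expected counts were divided by each library's total over mouse genes, and the ratio of pup 1 over pup 3 was given an exact 95% interval, which covers counting error only. A gene was listed as over 4-fold apart when its whole interval lay beyond 4-fold, which compares 2 libraries and not conditions. Of the 9 members 2 were listed, Hmgb2 and Hmga2, while 41% of 14605 mouse genes and 43.9% of 12034 protein coding genes with a count were. For Hmgb2, 319 counts in pup 1 and 3665 in pup 3 gave a ratio of 0.108 (0.0963 to 0.122), that is 9.24-fold lower in pup 1. For Hmga2, 94 counts in pup 1 and 0 in pup 3 made it at least 31.1-fold higher in pup 1, the lower bound of the exact interval. The 2 listed genes thus went in opposite directions, and of the coding genes 18.8% were listed as lower in pup 1, like Hmgb2, and 25.1% as higher, like Hmga2.

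None of the 6 members with a mean TPM of 100 or more was listed, and of all coding genes at that level 3.86% were. Ratios of these 6 lay at 0.540 for Hmgb1, 0.570 for Hmgb3, 0.650 for Hmgn1, 0.682 for Hmgn2, 1.13 for Hmgn3 and 1.56 for Hmga1. The first 4 were lower in pup 1 and the others higher, and all 9 members kept their side when libraries were scaled by TMM, DESeq2 size factors or spike-in totals. Hmgn5 was lower in pup 1 with a ratio of 0.300 (0.252 to 0.357). With its copy added Hmgn5 was 4.01-fold lower in pup 1 (3.43 to 4.72), which is still not listed. At the levels of the lower members large differences were frequent: of coding genes with a mean TPM of 20 to 50, where Hmgb2 lies, 36.2% were listed, and of those at 5 to 20, where Hmgn5 lies, 70.2%. The share was 81.1% at 1 to 5, where no member lies, and 34% below 1, where Hmga2 lies. Genes below 1 include some with too few counts for the rule to list them at any ratio, whereas Hmga2 had 94 in pup 1.

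The median gene detected in both pups had a log2 count ratio of -0.22 by library totals and of -0.02 by TMM, so that the median gene was also lower in pup 1 by library totals. On the log2(TPM + 1) scale the median of the 8 members seen in both pups was -0.63, and that of 6836 coding genes seen in both was -0.11.

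**Figure D4:**
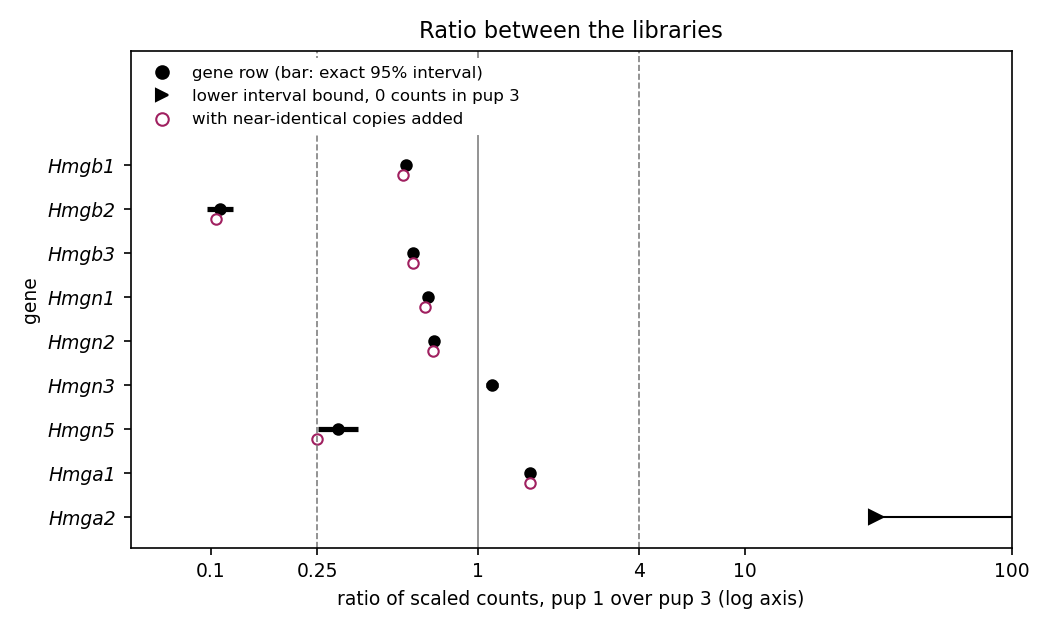
Ratio of scaled counts, pup 1 over pup 3, on a log axis, with exact 95% intervals as bars, open circles where near-identical copies are added, and dashed lines at 4-fold. Hmgb2 lies beyond the line on the side of pup 3 at 0.108. The lower interval bound of Hmga2, for counting error only, is 31.1-fold higher in pup 1. The rows of the other 7 genes lie between the lines, with Hmgn5 at the left line once its copy is added.

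Genes of dividing cells were examined because Hmgb2 is tied to proliferation. Of 10 such genes 3 passed the detection limit in both libraries, beside 31.8% of all protein coding genes, and 2 in pup 3 alone. The summed level of the list was 23.6 TPM in pup 1 and 103 TPM in pup 3. By the 4-fold rule 2 were higher in pup 1 and 4 in pup 3, beside 25.1% and 18.8% of coding genes with a count. They did not go one way: Cdca8 read 0.04 and 50.7 TPM, Ube2c 4.17 and 25.1, Rrm2 5.89 and 22.2, and Top2a 13.4 and 1.65. Mki67, the usual marker of cycling cells, read 0.01 and 0 TPM, and Tpx2 and Nusap1 were at 0 in both. Erythroid genes, at 1703 and 2891 TPM in sum with Alas2 at 0 and 30.7, were also higher in pup 3. The genes of oligodendrocyte precursors summed to 61.4 TPM in each pup. Pdgfra read 31.15 and 24.4 TPM, Sox10 23.4 and 0, Olig2 1.18 and 15.4, Cspg4 5.04 and 10.2 and Olig1 0.71 and 11.45. Neuronal genes summed to 8822 and 5321 TPM. Tubb3 (5927 and 1794), Map2 (342 and 318), Syt1 (76.5 and 58.9) and Elavl3 (54.2 and 32.6) were higher in pup 1. Stmn2 (2056 and 2565) and Snap25 (366 and 552) were higher in pup 3. Radial glial and astrocyte genes summed to 1852 and 2375 TPM. Fabp7 (1385 and 2053), Sox9 (18.9 and 31.9) and Sox2 (5.15 and 23.1) were higher in pup 3. Vim (209 and 164), Slc1a3 (213 and 101) and Hes5 (20.6 and 1.42) were higher in pup 1. The part of cell make-up in the Hmgb2 values was not tested.

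The let-7 relation of Hmga2 was looked at in its sequence, as microRNAs were not measured here. All 8 let-7 mature sequences of RefSeq share the seed GAGGUAG, bases 2 to 8. Its 7-base match CTACCTC on the transcript strand occurred 4 times in the longest annotated 3′ UTR of Hmga2, once in that of Hmga1 and not in those of the other 7 members. Of 21700 genes with a coding transcript that ends in a stop codon, 8.75% had the match after it and 0.0553% had it 4 times or more. These genes were taken at any 3′ UTR length and not matched to the 3014 bases of Hmga2. One let-7 and the first and last match in Hmga2 (chr10:120364224-120364246 and chr10:120361691-120361713, minus strand, GRCm38) are shown, with the seed and its match in capitals.
mmu-let-7b-5p: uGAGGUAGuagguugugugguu
Hmga2 first match: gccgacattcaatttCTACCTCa
Hmga2 last match: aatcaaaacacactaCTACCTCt

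Genes around let-7 were low or at 0. Lin28a and Lin28b, which block the making of let-7, and Igf2bp1, an RNA-binding protein of fetal tissue, had 0 counts in both pups. Igf2bp2, a target of Hmga2 in muscle, read 6.72 and 0 TPM, and Igf2bp3 7.31 and 2.42 TPM. Only Igf2bp3 of these 5 genes was thus detected in both pups, beside 31.8% of all protein coding genes.

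Partners and competitors of the HMG proteins were read from lists. Linker histones, which HMGN and HMGB proteins displace, were sparse in these libraries. How fully the method captures their RNA was not tested. Of 7 genes only H1f0, the variant of cells that have stopped dividing, was in both pups, at 41.1 and 64.2 TPM. Hist1h1e read 41.4 and 0 TPM, Hist1h1b 19.7 and 0 and Hist1h1c 11.95 and 0, whereas H1fx read 0 and 4.63, and Hist1h1a and Hist1h1d were at 0 in both. Of 17 genes of histone chaperones and other chromatin partners 16 were in both pups, all but Anp32b with 36.5 and 0 TPM. For both lists, the share detected in both pups over all protein coding genes was 31.8%. Among the highest were the histone chaperones Npm1 (561 and 266 TPM), Nap1l4 (397 and 161) and Set (199 and 219), and Cbx3, a heterochromatin protein (412 and 225). In the list of partners 2 genes were over 4-fold higher in pup 1, Parp1 (43.5 and 9.28 TPM) and Anp32b, and 0 in pup 3. Of coding genes with a count, 25.1% and 18.8% were.

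Of 22 other genes with an HMG box, 12 reached the detection limit in both libraries, 7 did so in pup 1 alone and 1 in pup 3 alone. The share in both was 31.8% over all protein coding genes. Tcf7l2, a Wnt effector of the thalamus and midbrain, read 582 and 426 TPM, with a mean of 504 beside the 501 of Hmgb3. Smarce1, a subunit of the BAF remodeler, read 177 and 79.3 TPM, and Tfam, which packs mitochondrial DNA, 38.9 and 184. Hmgb4, the testis member of the HMGB family, had 0 counts in both pups. By the 4-fold rule 7 of the 22 were higher in pup 1 and 3 in pup 3, beside 25.1% and 18.8% of coding genes with a count. The median log2 ratio of TPM + 1 was 0.16 over the 12 genes seen in both pups.

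Of 8 genes for binding or sensing of extracellular HMGB1, 2 were in both pups, Cd24a (201 and 329 TPM) and the chemokine Cxcl12 (58.7 and 104.7 TPM), which forms a complex with HMGB1. Its receptor Cxcr4 read 0 and 0.26 TPM. Ager, which encodes the receptor RAGE, Havcr2 and the Toll-like receptors Tlr2, Tlr4 and Tlr9 had 0 counts in both. Over all protein coding genes, 31.8% were detected in both pups.

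**Figure D5:**
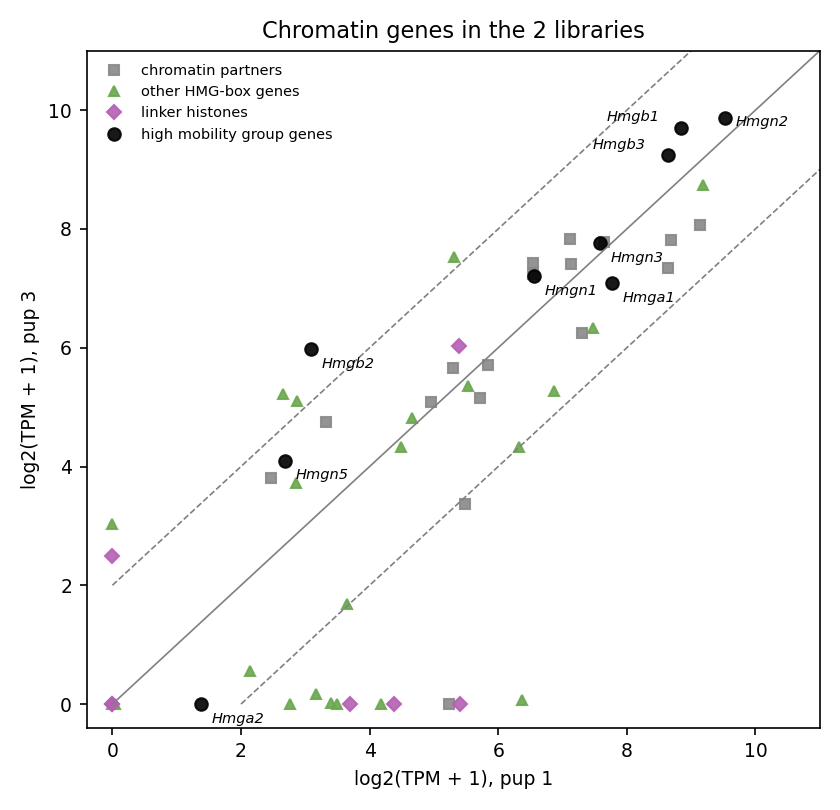
Level in pup 1 (horizontal) against pup 3 (vertical), both as log2(TPM + 1), for the 9 HMG genes in black and for other HMG-box genes, linker histones and chromatin partners; dashed lines mark 4-fold on this scale. The 6 highest HMG genes lie near the line of equal level, Hmgb2 lies above the upper dashed line, and several other HMG-box genes and linker histones lie on or close to an axis, with little or no level in 1 of the pups.

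By levels in the 2 libraries, the coding genes nearest to Hmgn2 were Atp5a1, of the ATP synthase (740 and 924 TPM), Dynlrb1 (750 and 991) and Tspan7 (789 and 954), at distances of 0.02, 0.09 and 0.10 in log2(TPM + 1). Those nearest to Hmga2 were Ypel4 (1.60 and 0 TPM), Stk10 and Usp30 (1.61 and 0 each), and 140 coding genes lay within a distance of 0.25, so that this pattern is a common one.

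The libraries held 26583225 and 33142647 expected counts, of which spike-ins took 2.05% and 2.21%, and 9198 and 8410 coding genes were detected. Of 10 midbrain genes, Th, Gata3 and Pou4f1 reached 1 TPM in each library, as did 31.8% of all protein coding genes. Otx2 (40.6 and 0.40 TPM), Pitx3 (8.14 and 0), Lmx1b (3.88 and 0) and Slc6a3 (2.38 and 0) did so in pup 1 alone, En2 (0.71 and 2.49) in pup 3 alone, and Foxa2 had 0 counts in both.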

How the data were processed

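RNA of 2 newborn midbrains was deposited as gene and transcript tables, 1 pair per library. Per the file headers and notes beside them, the authors used mm10 and GENCODE M4. The sources used here do not give aligner, quantification program, versions or use of strand. Expected counts, as the authors deposited them, split reads between similar genes. They were rounded for intervals. The deposited TPM and FPKM values are per effective length. The deposited posterior SD of the count is a score in reads, the deposited bounds of the TPM interval are a signal in TPM, and the deposited percent gives each transcript's part of its gene.

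GENCODE M21 (GRCm38, also called mm10) gave symbols, coordinates and coding sequences, and RefSeq the let-7 sequences. Copies were found with blastn 2.17.0. Ratio intervals are exact (Clopper-Pearson) 95%. The 4-fold rule was tried on simulated counts that held counting error only. Such counts leave out amplification, so the trial does not show how the rule does on these libraries. Only counting error is covered by intervals and floors, because amplified reads are not independent molecules. A difference between pups rests on 1 library each, and no p-value was computed. The members, lists and rules were chosen with earlier results of these data known. Named were all members, transcripts at 10% or more, copies with 3 counts (at most 10), up to 4 genes per list by mean TPM and those at 0, and the 3 genes nearest to 2 members. One gene that this rule names is not reported here. Parp1, Anp32b, Cxcr4, Mki67, H1fx, Alas2, Pitx3, Lmx1b, Slc6a3, En2 and the genes with overlapping exons were named after their values were seen. So were Olig1, Syt1, Elavl3, Sox2 and Hes5. Detection limits, units, scalings, pseudocounts, copies and single pups were varied. The rule requiring a posterior SD above 0 for copies was set after the data were seen. Scaling factors, and nothing else, came from edgeR 4.0.16 and DESeq2 1.42.0 in R 4.3.3. Python 3.11.15 was used with scipy 1.17.1 for intervals, biopython 1.88 for alignment and pandas 2.3.3 for tables.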

Additional observations from a re-analysis of the deposited data

How the results depend on the processing

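With 2 libraries of 1 group, values can be varied by setting but not tested. The count of members detected in both pups (8) was 6 at a TPM of 10 and 8 at a TPM of 0.1, at 10 counts, with posterior mean TPM and with FPKM. The count over 4-fold apart stayed at 2 under each scaling, with posterior mean counts and with copies added, and was 3 at 2-fold. The summed level of 2532 TPM became 3153 when scaled over protein coding genes outside the mitochondrial genome. It became 3127 with the copies' TPM added, each per the copy's own length. The log2 ratio of Hmgn1 over Hmgn3 was -0.80 per length and reversed to 0.40 in CPM, which is not per length. That of Hmgb1 over Hmgb3 (0.34) was 0.0425 in CPM and 1.17 with the copies' TPM added in the same way, an alternative chosen after seeing the data. Hmgn1 over Hmgn2 (-2.82) was -2.20 in CPM, and Hmga1 over Hmga2 (6.74) was 8.70 with a pseudocount of 0.1 and 4.08 with 10, since Hmga2 was at 0 in pup 3. The ratio of Hmgb1 over Hmgb2 (4.74) and the 4 shared leading transcripts moved within the limits used. Taken alone, the pups gave 9 and 8 detected members and sums of 2114 and 2949 TPM. No paired analysis was possible because there is only 1 group.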
